A study of Mus musculus with 10 samples.

Results

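The genes described here mark T cells and cytotoxic lymphocytes in RNA from crypts of the mouse distal colon. There are 10 of them among the 23364 genes measured, taken by symbol: the CD3 chains Cd3e, Cd3d and Cd3g, the coreceptors Cd4, Cd8a and Cd8b1, the kinase gene Lck, the granzymes Gzma and Gzmb, and the integrin gene Itgae. All 10 were found in both deposited tables. Crypts were released from the colon wall by shaking with the chelator EDTA, and their poly(A) RNA was sequenced. The AOM+DSS group held 3 libraries of mice that received azoxymethane (AOM), a carcinogen that alkylates DNA, and then dextran sulfate sodium (DSS), which damages and inflames the colon lining. The DSS group held 4 libraries of mice given DSS alone, and the control group held 3 libraries of untreated mice. Strain, age, doses and times are not given in the labels, which also do not say whether each library came from a separate animal. All p-values therefore rest on the spread among these libraries, and that spread may be technical.

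T cells recognise antigen through a receptor that signals through the CD3 chains. CD4 or CD8 binds the presenting molecule beside the receptor and brings the kinase LCK to the CD3 chains, which LCK phosphorylates. Cytotoxic T cells and natural killer (NK) cells store granzymes, proteases that enter a target cell with the help of perforin and set off its death. In the gut many T cells sit between epithelial cells as intraepithelial lymphocytes. There the integrin chain CD103, the product of Itgae, pairs with integrin beta 7 and binds E-cadherin on the epithelium, and granzymes A and B are characteristic products.

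The values are normalized reads, that is, reads divided by a size factor for the depth of each library. The tables give group means, from which whole reads per library were recovered, for all 10 genes in all 10 libraries. Libraries carry letters within their group in order of depth, starting with a for the deepest, and no letter stands for a replicate number of the labels. Size factors ran between 0.905 and 1.34 in AOM+DSS, between 0.645 and 1.27 in DSS and between 0.944 and 1.04 in control. Of 10 epithelial markers, all but Lgals4, with means of 114 in AOM+DSS, 125 in DSS and 168 in control, had group means far above those of the lymphocyte genes. The authors' deposited tables give Epcam, an epithelial adhesion molecule, mean normalized reads of 28957 in AOM+DSS, 28156 in DSS and 24719 in control. They call 0 of 10 epithelial markers in either comparison, against 8.89% of all genes called in either direction in AOM+DSS and 4.39% in DSS. An unadjusted p under 0.05 was given there to 0 in AOM+DSS and 1 in DSS, against 18.9% and 13.2% of all genes. Of the 10 epithelial markers, limma could test 2 in AOM+DSS and 1 in DSS, and it called 0.

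Several of the genes are neighbours. In the RefSeq annotation of GRCm38.p6, Cd3g, Cd3d and Cd3e lie together on chromosome 9 within 40091 bp, and Cd3g and Cd3d are transcribed in opposite directions from starts 1338 bp apart. Cd8b1 ends 35935 bp before the start of Cd8a on chromosome 6, which also holds Cd4. The reads were mapped to another build, mm9, so these positions give context only. Promoters are printed for both granzymes, the members called in AOM+DSS, and for Cd3e and Cd3d, which followed each other closely across libraries. Each is the 250 bases before a start in the RefSeq promoter table, on the strand of the gene. For Cd3e and Cd3d that start lies slightly inside the annotated gene span used for the distances above. The windows are at chr13:113100982-113101231 (minus) for Gzma, chr14:56262335-56262584 (minus) for Gzmb, chr9:45009612-45009861 (minus) for Cd3e and chr9:44981536-44981785 (plus) for Cd3d. Capitals mark matches, on either strand, to TGTGGT (the core bound by RUNX factors), AGGAAG (a core bound by ETS factors) or TGACGT (a core bound by CREB and ATF factors).
Gzma promoter: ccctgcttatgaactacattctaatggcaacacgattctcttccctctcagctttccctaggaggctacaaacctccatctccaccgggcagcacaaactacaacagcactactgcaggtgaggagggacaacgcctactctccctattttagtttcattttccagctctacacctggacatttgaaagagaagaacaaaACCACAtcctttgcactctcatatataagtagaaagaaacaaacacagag
Gzmb promoter: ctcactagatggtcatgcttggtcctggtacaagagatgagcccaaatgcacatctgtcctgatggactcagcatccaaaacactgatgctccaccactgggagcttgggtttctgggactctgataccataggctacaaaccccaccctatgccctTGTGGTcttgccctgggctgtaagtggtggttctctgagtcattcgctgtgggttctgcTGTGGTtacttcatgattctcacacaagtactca
Cd3e promoter: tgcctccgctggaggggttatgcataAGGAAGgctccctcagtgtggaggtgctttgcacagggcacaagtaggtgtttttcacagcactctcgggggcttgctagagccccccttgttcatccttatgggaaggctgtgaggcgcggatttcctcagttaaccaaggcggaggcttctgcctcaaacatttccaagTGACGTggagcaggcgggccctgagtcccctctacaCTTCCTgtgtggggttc
Cd3d promoter: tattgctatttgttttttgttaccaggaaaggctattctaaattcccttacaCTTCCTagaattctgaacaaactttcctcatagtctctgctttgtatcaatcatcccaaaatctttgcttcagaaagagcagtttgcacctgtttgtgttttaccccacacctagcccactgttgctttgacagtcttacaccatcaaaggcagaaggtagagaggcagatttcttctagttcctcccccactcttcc

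TGTGGT occurred 1 time before Gzma, 50 bases from the start, and 2 times before Gzmb, 93 and 34 bases from it. It was absent from the printed Cd3e and Cd3d windows, and 14% of 32851 mouse promoters of this length hold it. AGGAAG occurred 2 times before Cd3e and 1 time before Cd3d, against 29.5% of all promoters with at least 1 match. TGACGT occurred 1 time before Cd3e, 53 bases from the start, and 6.47% of promoters hold it. RefSeq promoters were matched for 7 of the 10 genes. For Lck, the window at chr4:129573642-129573891 (minus) held 1 TGTGGT and 3 AGGAAG, and that at chr4:129558373-129558622 (minus) held only 1 AGGAAG. The windows before Cd3g and Cd8a held none of the motifs. The matches describe letters and do not show that a factor binds there.

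Among the 10 genes, the authors' deposited tables call Gzma and Gzmb higher in AOM+DSS and Gzmb higher in DSS. The CD3 chains, the coreceptors and Lck had higher group means in both treated groups, but none passed the test. In AOM+DSS this rested on single libraries for some: the log2 ratio of means was -0.095 for Cd8b1 and 0.13 for Cd8a without AOM+DSS library c, and -0.034 for Lck without control library c. In DSS a single library held most of their reads, and in control another stood above its group. Itgae had nearly equal means in all 3 groups, but without DSS library a its log2 ratio of DSS to control means was -0.55. In bulk RNA, more lymphocytes and more RNA per lymphocyte cannot be told apart.

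**Figure D1:**
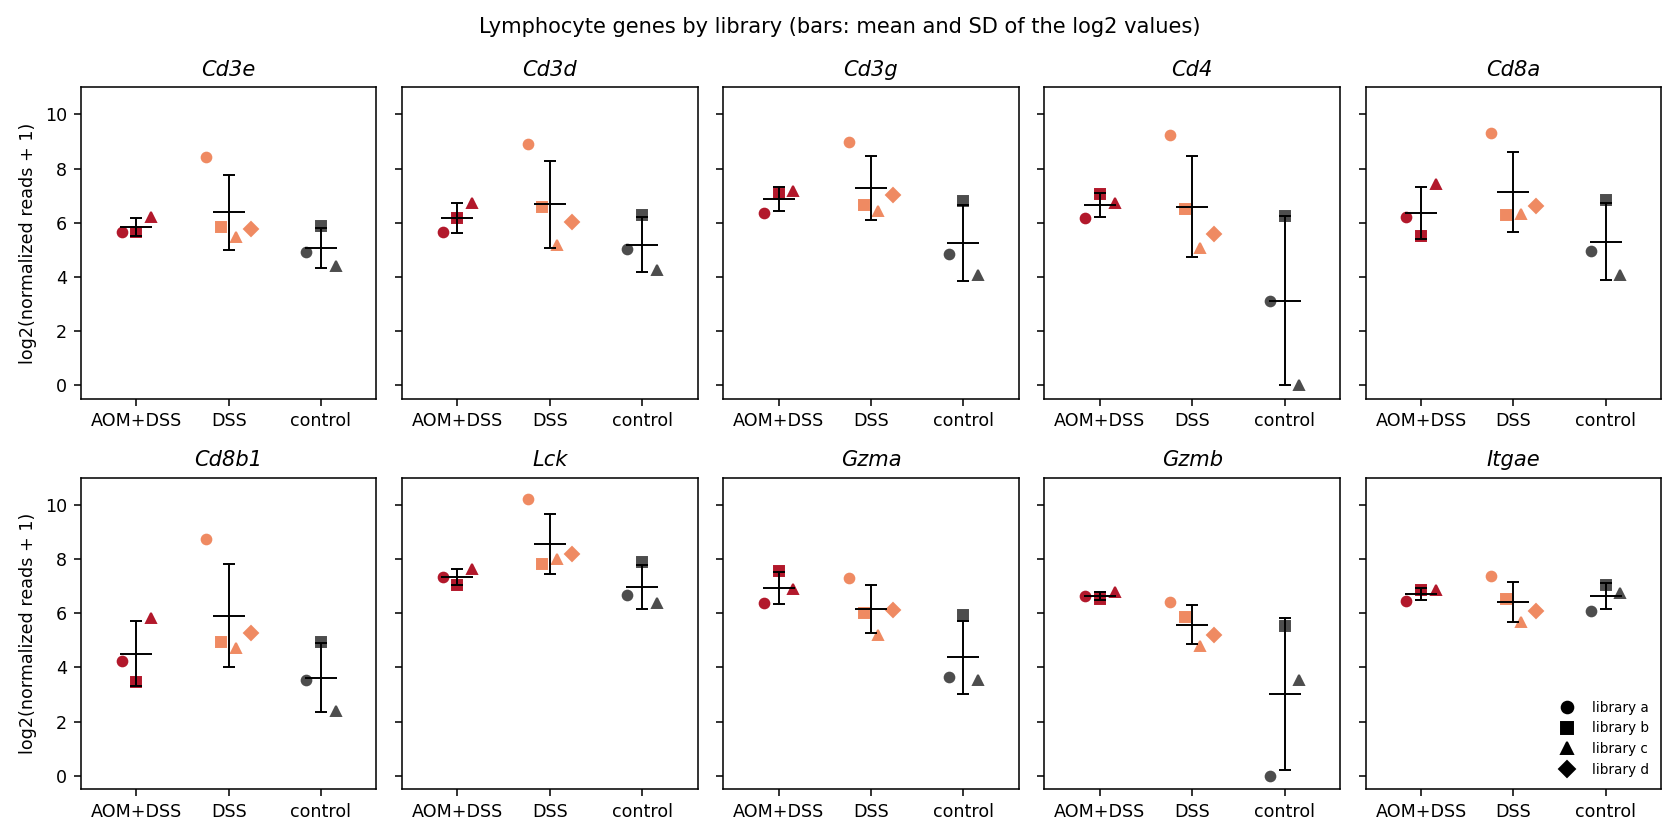
Each panel plots 1 lymphocyte gene, with log2(normalized reads + 1) on the vertical axis and the AOM+DSS, DSS and control groups side by side. Symbols are libraries a to d, and bars give the mean and SD of the log2 values. DSS library a is the highest DSS point in every panel, control library b is the highest control point in every panel, and in the Gzma and Gzmb panels the AOM+DSS points lie above all control points.

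Gzma encodes granzyme A, a trypsin-like protease of cytotoxic granules. It was at 81.8, 187 and 118 normalized reads in AOM+DSS libraries a to c, at 158, 64.3, 35.4 and 68.2 in DSS libraries a to d, and at 11.6, 60.2 and 10.6 in control libraries a to c. Every AOM+DSS library lay above every control library, whereas the DSS and control ranges overlapped. Means were 129 ± 53.4 in AOM+DSS, 81.5 ± 53.1 in DSS and 27.5 ± 28.4 in control (SD, n = 3, 4 and 3). The authors' deposited table puts the AOM+DSS to control ratio at 4.69 with an adjusted p of 0.0422. The limma fit on log2(normalized reads + 1) gave a difference of 2.57 ± 0.68 (SE) with a Benjamini-Hochberg adjusted p of 0.0391. That limma call was lost without any 1 of the libraries other than control b, with log2 differences of 2.15 to 2.85 and adjusted p of 0.0698 to 0.147. In DSS against control the authors' deposited table gives a log2 ratio of 1.57 with an adjusted p of 0.220, so Gzma did not pass there.

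Gzmb encodes granzyme B, the protease that activates caspases in the target cell. AOM+DSS libraries a to c held 97.4, 90.2 and 110.5 normalized reads, DSS libraries a to d held 85.4, 56.9, 26.9 and 35.7, and control libraries a to c held 0, 45.4 and 10.6. The 0 in control library a allows up to 3 reads, for counting error only. The AOM+DSS values were close together and all above those of both other groups, while DSS and control overlapped. Gzmb averaged 99.3 ± 10.3 in AOM+DSS, 51.2 ± 26.0 in DSS and 18.7 ± 23.8 in control (SD, n = 3, 4 and 3). The authors' deposited table gives ratios to control of 5.32 in AOM+DSS, with an adjusted p of 0.000401, and 2.74 in DSS, with an adjusted p of 0.0488. With limma neither call held: the log2 difference from control was 3.62 ± 1.21 (SE) in AOM+DSS, with a Benjamini-Hochberg adjusted p of 0.0759, and 2.55 ± 1.11 (SE) in DSS, with 0.227. Granzymes form a family of similar genes, so their counts carry some uncertainty where reads match more than 1 of them.

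Read against all genes, the granzyme calls stand as follows. In AOM+DSS 2 of the 10 genes were called higher and 0 lower in the authors' deposited table, where 5.54% of 18334 tested genes were called higher and 3.35% lower. Their median log2 ratio in the authors' deposited table was 0.87, against 0.04 over all tested genes, and all 10 ratios were above 0. The groups did not overlap for 2 of 10 genes, and 20.7% of all genes had every AOM+DSS library above every control library, so that share matches the background. In DSS 1 of 10 genes was called higher and 0 lower, with 2.61% of 18099 genes called higher and 1.78% lower in the authors' deposited table. There the median log2 ratio of the 10 genes was 1.91 in the authors' deposited table, against 0.02 over all genes, and 9 of 10 were above 0. For 0 of 10 genes did all DSS libraries exceed all controls, against a background of 9.29%. With limma 0 of 10 passed in DSS and 1 of 10 in AOM+DSS, where 2.92% and 10.8% of all genes were called higher, and 6 and 4 of the 10 had an unadjusted p under 0.05, against 21.5% and 34.5% of all genes. By the authors' deposited tables, an unadjusted p under 0.05 was seen for 2 of the 10 in each comparison, against 18.9% of all genes in AOM+DSS and 13.2% in DSS. Both comparisons use the same control libraries.

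Cd3e, Cd3d and Cd3g encode the signalling chains that every T cell receptor needs, and they moved from library to library in parallel. Cd3e was at 49.8, 48.8 and 72.9 normalized reads in AOM+DSS libraries a to c, at 346, 56.0, 43.9 and 52.7 in DSS libraries a to d and at 29.0, 57.3 and 20.1 in control libraries a to c. Cd3d was at 49.1, 70.3 and 105 in AOM+DSS, at 482, 95.6, 35.4 and 63.6 in DSS and at 31.9, 77.0 and 18.0 in control, in the same order of libraries. For Cd3g the values were 80.3, 134 and 141 in AOM+DSS, 509.8, 98.9, 86.4 and 129 in DSS and 28.0, 111 and 15.9 in control. For all 3 genes DSS library a was far above every other library, and control library b reached into the treated ranges. The authors' deposited tables give log2 ratios to control of 0.69 to 1.20 in AOM+DSS, with adjusted p between 0.811 and 1, and of 1.81 to 2.0 in DSS, with adjusted p between 0.512 and 0.728. An antisense gene, Gm48719, shares 135 exon bases with Cd3e in GENCODE M21, and the library kit does not mark strand, so reads there could come from either.

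Cd4 marks helper and regulatory T cells and is also found on some macrophages and dendritic cells. AOM+DSS libraries a to c held 70.6, 133 and 104 normalized reads, DSS libraries a to d held 602, 89.8, 32.6 and 46.5, and control libraries a to c held 7.72, 75.1 and 0. Control library b was 19.4 times the mean of the other controls, and both treated groups overlapped control through that library alone. The authors' deposited tables give log2 ratios to control of 1.89 in AOM+DSS, with an adjusted p of 0.814, and of 2.80 in DSS, with 0.650.

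Cd8a and Cd8b1 encode both chains of CD8. Conventional cytotoxic T cells carry the mixed alpha-beta dimer, and many intraepithelial lymphocytes carry alpha chains alone. Cd8a was at 72.1, 44.7 and 169 normalized reads in AOM+DSS, at 640.3, 77.4, 77.9 and 97.7 in DSS and at 29.9, 115 and 15.9 in control. Cd8b1 was at 17.8, 9.93 and 55.2 in AOM+DSS, at 428, 29.7, 25.5 and 37.2 in DSS and at 10.6, 29.6 and 4.24 in control. The groups overlapped for both genes. The authors' deposited tables give Cd8a log2 ratios of 0.83 in AOM+DSS and 2.06 in DSS, and Cd8b1 log2 ratios of 0.90 and 3.13, with adjusted p of 1 in AOM+DSS and of 0.745 and 0.804 in DSS.

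Lck, the kinase that starts signalling at the receptor, was at 161, 132 and 199.96 normalized reads in AOM+DSS, at 1201, 227, 253 and 288 in DSS and at 100.4, 236 and 81.6 in control. All AOM+DSS libraries lay within the control range, and all lay below every DSS library. The authors' deposited tables give log2 ratios to control of 0.24 in AOM+DSS, with an adjusted p of 1, and of 1.82 in DSS, with 0.628.

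Itgae, whose product CD103 holds T cells to the epithelium, was at 87.0, 115 and 114 normalized reads in AOM+DSS, at 166, 90.6, 49.6 and 66.7 in DSS and at 67.6, 129 and 107 in control. The ranges of all 3 groups overlapped. The authors' deposited tables give log2 ratios to control of 0.06 in AOM+DSS and -0.12 in DSS, each with an adjusted p of 1. An intron of Itgae holds Gsg2, a kinase gene on the opposite strand with 0 shared exon bases in GENCODE M21, which was at 189 to 288 normalized reads in AOM+DSS, 204 to 261 in DSS and 174 to 215 in control.

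Levels of different genes can be set side by side per kilobase of transcript, using lengths from GENCODE M21. In AOM+DSS the order of mean normalized reads per kilobase began with Gzma at 147, Cd3g at 116, Lck at 75.2 and Gzmb at 69.2, and ended with Itgae at 27.4 and Cd8b1 at 18.7. In DSS Lck at 225 and Cd3g at 201 led, and Gzmb at 35.7 and Itgae at 24.2 came last. In control Lck at 63.8 and Cd3g at 50.3 led, and Cd8b1 at 9.999 and Cd4 at 8.88 came last. Single libraries shaped these orders. Without control library b, Lck at 41.6 led control, Itgae at 22.7 passed Cd3g at 21.5, and Gzmb at 3.69 and Cd4 at 1.24 came last. Without DSS library a, Cd4 at 18.1 and Itgae at 17.9 came last in DSS. With all libraries, each pair of neighbours named here differed by less than the larger SD of the pair over libraries, per kilobase, except Cd3g and Lck in AOM+DSS.

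AOM+DSS and DSS were compared directly with limma, because no deposited table sets them against each other. None of the 10 genes passed the Benjamini-Hochberg adjusted threshold (0 of 10, against 2.35% of 15848 genes), and 2 had an unadjusted p under 0.05, against 13.6% of all genes. These were Gzmb, higher in AOM+DSS with a log2 difference of 1.07 ± 0.41 (SE) and a limma adjusted p of 0.284, and Lck, with -1.21 ± 0.53 (SE) and a limma adjusted p of 0.357. They are also the only 2 of the 10 whose libraries did not overlap between these groups, 1 in each direction. Over all genes 8.81% had every AOM+DSS library above every DSS library and 3.41% had every one below. The median log2 difference of the 10 genes was -0.46, against 0.04 over all genes.

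DSS library a and control library b set much of the picture. The 10 genes together summed to 767, 965 and 1190 normalized reads in AOM+DSS libraries a to c, to 4619, 886, 667 and 886 in DSS libraries a to d and to 317, 935 and 284 in control libraries a to c. Relative to the mean of the other DSS libraries, DSS library a was 13.9 times as high for Cd8b1, 10.7 times for Cd4, 4.69 to 7.59 times for the CD3 genes, Cd8a and Lck, and 2.14 to 2.82 times for Gzmb, Itgae and Gzma. Across 10473 genes DSS libraries a and b resembled each other (Pearson r of log2 values 0.959), as did c and d (0.984), while r between the pairs was 0.908 to 0.938. The pairs also differed in depth, with size factors of 1.27 and 1.21 for a and b and of 0.706 and 0.645 for c and d. The part of depth in these correlations was not tested. Libraries a and b averaged 2752 summed reads of the 10 genes and libraries c and d averaged 776, against 512 in control. Library b alone, at 886, was level with library d, so the higher average of a and b came from library a.

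Leaving these libraries out changed which genes were called. Without DSS library a the log2 ratio of DSS to control means was 0.52 for Cd3e, 1.03 for Cd4, 1.05 for Cd8b1 and 0.88 for Lck, and Itgae was at -0.55. Without control library b, limma called 1 of 10 genes in DSS against control, Gzma, with a log2 difference of 2.57 and a Benjamini-Hochberg adjusted p of 0.0399, where 4.33% of all genes were called higher. Without both libraries, limma called 5 of 10 genes higher in DSS, where 4.92% of all genes were called higher. That choice was made after seeing the data, because these same genes had their highest sums there. Leaving them out in itself narrows the spread of these genes, so the count cannot be weighed against that share. The genes called were Lck (log2 difference 1.48, adjusted p 0.00863), Cd3g (2.24, 0.0143), Cd8a (1.89, 0.0279), Gzma (2.18, 0.0294) and Cd4 (4.15, 0.0392). In AOM+DSS against control without control library b, limma called 4 of 10 higher, against 15.1% of all genes: Gzma (3.35, 0.00438), Cd3g (2.39, 0.0106), Cd4 (5.09, 0.0116) and Gzmb (4.88, 0.0162). The control group then has 2 libraries. Control library b was the highest control for each of the 10 genes, so leaving it out in itself lowers their control means. The counts of 1 and 4 without it therefore cannot be weighed against their shares either.

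**Figure D2:**
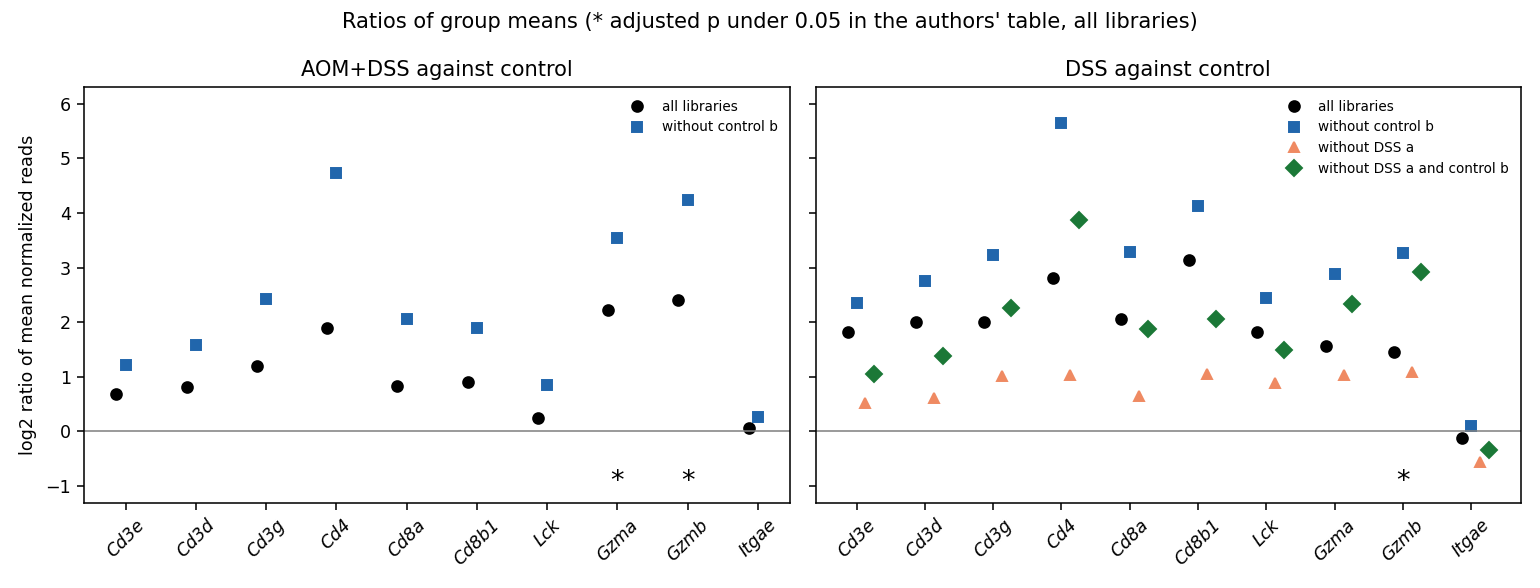
Points give the log2 ratio of mean normalized reads to control for each of the 10 genes, with AOM+DSS on the left and DSS on the right, for all libraries and with DSS library a, control library b or both left out. Asterisks mark genes with an adjusted p under 0.05 in the authors' deposited tables. In DSS, leaving out library a takes Cd4 to a log2 ratio of 1.03, and leaving out control library b takes it to 5.64.

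Ratios of genes within a library do not depend on its depth, and they were looked at after the levels were known, as a description with no test. Gzma and Gzmb reads per CD3 read (Cd3e, Cd3d and Cd3g summed) were 1.00, 1.09 and 0.716 in AOM+DSS libraries a to c, 0.182, 0.484, 0.376 and 0.424 in DSS libraries a to d and 0.13, 0.431 and 0.392 in control libraries a to c. Every AOM+DSS library was above every other library, with means of 0.937 ± 0.197 in AOM+DSS, 0.366 ± 0.131 in DSS and 0.318 ± 0.164 in control (SD, n = 3, 4 and 3). The library with the most CD3 reads, DSS library a, had among the lowest ratios. Lck per CD3 read was 0.896, 0.523 and 0.626 in AOM+DSS, 0.898, 0.905, 1.53 and 1.18 in DSS and 1.13, 0.964 and 1.51 in control. AOM+DSS libraries b and c were below the rest, while AOM+DSS library a was nearly level with DSS libraries a and b.

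Itgae per CD3 read was 0.356 to 0.485 in AOM+DSS, 0.124 to 0.362 in DSS and 0.528 to 1.98 in control, and every control library was above every treated library. This ratio was highest where CD3 reads were fewest, in control library c with 51 CD3 reads. Cd8b1 per Cd8a read was 0.222 to 0.327 in AOM+DSS, 0.327 to 0.668 in DSS, with the highest value in DSS library a, and 0.259 to 0.355 in control. The Cd4 share of Cd4 and Cd8a reads was 49.5%, 74.9% and 38.1% in AOM+DSS, 48.4%, 53.7%, 29.5% and 32.3% in DSS and 20.5%, 39.6% and 0% in control. Counts behind the control shares were small (8 of 39, 76 of 192 and 0 of 15 reads), and the 95% Wilson interval reached 20.4% for the last, counting error only. The shares overlapped between all groups.

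**Figure D3:**
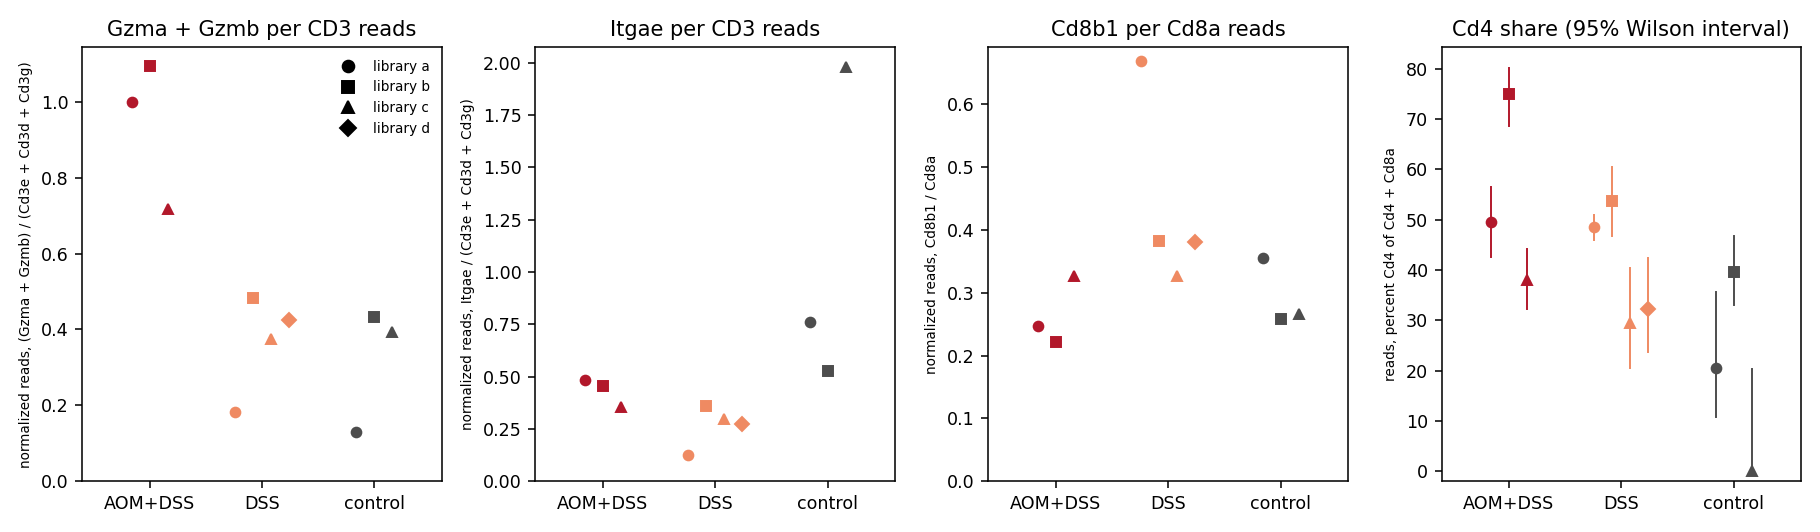
The panels plot, per library and from AOM+DSS through DSS to control, the normalized reads of Gzma and Gzmb per CD3 read, Itgae per CD3 read, Cd8b1 per Cd8a read, and the Cd4 share of Cd4 and Cd8a reads in percent with its 95% Wilson interval. The AOM+DSS points of the first panel, at 0.716 to 1.09, lie above all DSS and control points, which reach 0.484.

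The genes whose pattern was most like that of the CD3 chains were sought over the 10 libraries among 10473 genes, as a description. Fam78a came first, with a Pearson r of 0.993 to the mean log2 value of Cd3e, Cd3d and Cd3g, followed among genes outside the 10 by Cd6 (0.983), Pced1b (0.982), Agap2 (0.979) and Arhgap15 (0.976). Cd6 encodes a T cell surface receptor. All share the same libraries, and DSS library a is the highest for each: Fam78a was at 54.3, 66.2 and 87.3 normalized reads in AOM+DSS, at 639, 77.4, 43.9 and 63.6 in DSS and at 17.4, 50.4 and 9.53 in control. On the same measure Cd8a reached 0.954 and Cd8b1 0.937, Cd4 and Lck 0.917, Gzma 0.812, Gzmb 0.625 and Itgae 0.546. The granzymes and Itgae thus followed the CD3 chains less closely across libraries than the coreceptors did, which was not tested.

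Of 18 other genes of the T cell receptor pathway, 16 had a log2 ratio above 0 in AOM+DSS and 18 in DSS in the authors' deposited tables, without passing the test. Of these 18, 0 were called in either comparison in the authors' deposited tables, against 5.54% of all genes called higher in AOM+DSS and 2.61% in DSS. There 1 in AOM+DSS and 3 in DSS had an unadjusted p under 0.05, against 18.9% and 13.2% of all genes. The median log2 ratio of the 18 in the authors' deposited tables was 1.17 in AOM+DSS and 2.6 in DSS. Limma called 3 of them higher in AOM+DSS and 0 in DSS, against 10.8% and 2.92% of all genes. Ptprc, which encodes the leukocyte phosphatase CD45, was at 499, 687 and 637 normalized reads in AOM+DSS, at 4607, 1232, 576 and 422 in DSS and at 158, 674 and 159.9 in control. Zap70, the kinase recruited to phosphorylated CD3 and chosen here after its values were seen, was at 148, 185 and 103 in AOM+DSS, at 313, 80.7, 55.2 and 90.0 in DSS and at 20.3, 65.2 and 14.8 in control. Its AOM+DSS libraries were all above the controls, and the authors' deposited table gives an adjusted p of 0.186.

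Among 17 other genes of cytotoxic granules and NK cells, the authors' deposited tables call 2 higher in AOM+DSS, against 5.54% of all genes, and 1 higher in DSS, against 2.61%, with median log2 ratios of 0.26 and 0.82. Limma called 4 higher in AOM+DSS, against 10.8% of all genes, and 0 in DSS, where 2 genes had an unadjusted p under 0.05 in the authors' deposited table. Cd244, a receptor of NK cells and activated CD8 T cells, was at 127, 189 and 109 normalized reads in AOM+DSS and at 16.4, 32.6 and 4.24 in control, and the authors' deposited table gives a log2 ratio of 3.0 with an adjusted p of 4.46e-06. Srgn encodes serglycin, a granule proteoglycan of cytotoxic cells, mast cells, neutrophils and macrophages. It was at 600.1, 1505 and 642 in AOM+DSS, at 899.5, 1131, 87.8 and 138 in DSS and at 20.3, 150.1 and 12.7 in control. The authors' deposited tables give Srgn log2 ratios of 3.91 in AOM+DSS, with an adjusted p of 0.0144, and 3.21 in DSS, with 0.0479.

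Perforin and the NK receptor genes Ncr1 and Klrb1c had few reads in most libraries, whereas Klrd1, which encodes the receptor CD94 of NK and some T cells, had more. Klrd1 was at 23.1, 20.7 and 69.6 normalized reads in AOM+DSS, at 111, 30.5, 28.3 and 32.6 in DSS and at 37.7, 42.5 and 14.8 in control, so all groups overlapped. Prf1, the perforin gene, was at 5.95, 6.62 and 7.73 normalized reads in AOM+DSS, at 53.0, 9.89, 2.83 and 0 in DSS and at 0.965, 2.96 and 1.06 in control, and the authors' deposited tables give adjusted p of 0.886 in AOM+DSS and 0.693 in DSS. Ncr1, which encodes the NK receptor NKp46, was at 1.65 to 4.46 in AOM+DSS, 4.25 to 7.11 in DSS and 0 to 5.93 in control. Klrb1c, which encodes the receptor NK1.1, was at 5.21 to 12.2 in AOM+DSS, 4.25 to 20.6 in DSS and 2.90 to 10.9 in control. Gzmc, a neighbour of Gzmb in the granzyme family, was at 17.1, 7.44 and 45.3 in AOM+DSS, at 11.9, 7.42, 4.25 and 4.65 in DSS and at 0.965, 3.95 and 1.06 in control. Prf1 and Gzmc were chosen after their values were seen.

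Of 20 genes for T cell transcription factors and helper or regulatory products, the authors' deposited tables call 3 higher and 1 lower in AOM+DSS and 1 higher in DSS, with median log2 ratios of 1.92 and 2.30. Over all genes they call 5.54% higher and 3.35% lower in AOM+DSS and 2.61% higher in DSS. Gata3, the factor of type 2 helper cells and type 2 innate lymphoid cells, was at 115, 142 and 70.7 normalized reads in AOM+DSS, at 84.6, 24.7, 36.8 and 31.0 in DSS and at 2.90, 9.88 and 1.06 in control. Both treated groups lay wholly above control, and the authors' deposited tables give log2 ratios of 4.57 in AOM+DSS (adjusted p 9.78e-08) and 3.26 in DSS (adjusted p 0.000236). Pdcd1, the inhibitory receptor PD-1 of activated T cells, was at 38.7, 79.4 and 40.9 in AOM+DSS and at 2.90, 9.88 and 2.12 in control, and its log2 ratio in the authors' deposited table is 3.42 (adjusted p 0.00101). The third gene called higher was Il17a, a cytokine of type 17 lymphocytes outside the naming rule, to which the authors' deposited table gives a log2 ratio of 4.82 (adjusted p 0.0354) and means of 18.4 normalized reads in AOM+DSS and 0.651 in control there. Limma called 7 genes of this list higher and 1 lower in AOM+DSS and 1 higher in DSS, against 10.8% of all genes called higher in AOM+DSS and 2.92% in DSS.

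Genes for lymphocyte homing and retention include chemokines and adhesion molecules. Of 20, the authors' deposited tables call 4 higher in AOM+DSS and 2 higher in DSS, with 0 lower and median log2 ratios of 1.33 and 2.10. Cxcl16, a membrane-bound ligand of CXCR6 on T cells, was at 1012, 1229 and 763 normalized reads in AOM+DSS, at 508, 480.4, 534 and 977 in DSS and at 218, 218 and 126 in control. All treated libraries were above all controls, and the authors' deposited tables give log2 ratios of 2.42 in AOM+DSS (adjusted p 5.11e-07) and 1.74 in DSS (adjusted p 0.00187). Icam1, which binds the integrin LFA-1 of leukocytes, was at 1036, 935 and 319 in AOM+DSS, at 556, 581, 299 and 361 in DSS and at 48.3, 184 and 31.8 in control. Its log2 ratios in the authors' deposited tables were 3.12 in AOM+DSS (adjusted p 0.000199) and 2.35 in DSS (adjusted p 0.00821). Cxcl10, a ligand of CXCR3 induced by interferon, was at 778, 572 and 292 in AOM+DSS and at 43.4, 73.1 and 45.5 in control, and its log2 ratio in the authors' deposited table is 3.34 (adjusted p 0.000172). The fourth was Cxcl9, another CXCR3 ligand outside the naming rule, to which the authors' deposited table gives a log2 ratio of 4.30 (adjusted p 0.00292). Over all genes the authors' deposited tables call 5.54% higher in AOM+DSS and 2.61% in DSS. Limma called 8 of 19 genes of the list higher in AOM+DSS and 3 of 18 in DSS, against 10.8% and 2.92% of all genes.

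Of 13 tested genes for cytokines that act on lymphocytes and for their receptors, the authors' deposited tables call 1 lower and 0 higher in AOM+DSS and 0 in DSS, where 2 had an unadjusted p under 0.05. Over all genes they call 3.35% lower and 5.54% higher in AOM+DSS, and 13.2% had such an unadjusted p in DSS. Limma called 1 higher and 1 lower in AOM+DSS and 0 in DSS, against 17.1% and 5.57% of all genes called in either direction. The gene called lower was Il15, the cytokine that sustains intraepithelial lymphocytes and NK cells. It was at 219, 216 and 297 normalized reads in AOM+DSS, at 243, 231, 378 and 296 in DSS and at 481, 444 and 377 in control. AOM+DSS and control did not overlap, and the authors' deposited table gives a log2 ratio of -0.83 with an adjusted p of 0.0302. In DSS the authors' deposited table gives Il15 a log2 ratio of -0.60 with an adjusted p of 0.153. Il18, an epithelial cytokine that promotes interferon release from T and NK cells, had 1497, 1674, 1774 and 1641 in DSS and 2513, 1919 and 2805 in control, and the authors' deposited table gives it an adjusted p of 0.105.

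Genes of other cell types moved with the same libraries only in part. Control library b was the highest control for the B cell, myeloid, fibroblast, smooth muscle and endothelial lists. DSS library a was the highest DSS library for the B cell, fibroblast and endothelial lists, and DSS library b for the myeloid and smooth muscle lists. The part of these lists in the lymphocyte results was not tested. Of 11 B and plasma cell markers, 9 could be summed, and their sums were 602, 287 and 1185 normalized reads in AOM+DSS, 11057, 3690, 2358 and 2468 in DSS, and 228, 1148 and 146 in control. DSS library a was the highest of all and control library b the highest control, as for the T cell genes. The authors' deposited tables call 1 of 11 higher in DSS, Pax5, the B cell identity factor, with an adjusted p of 1.32e-17, and 0 in AOM+DSS, with an unadjusted p under 0.05 for 4 in DSS and 1 in AOM+DSS. Over all genes the authors' deposited tables call 2.61% higher in DSS and 5.54% in AOM+DSS, and 13.2% and 18.9% had such an unadjusted p. Limma called 5 of 9 tested B and plasma cell markers higher in DSS, where 2.92% of all genes were, and 0 of 11 in AOM+DSS, where 10.8% were. Per library, 0 or 1 of the 9 B and plasma cell markers was at 0.

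Myeloid markers, 13 of 14 of which could be summed, reached 5201, 9708 and 4803 normalized reads in AOM+DSS, 3913, 4220, 1636 and 1857 in DSS and 1195, 2701 and 1176 in control, with none at 0. The authors' deposited tables call 10 of 14 higher in AOM+DSS and 3 of 14 higher in DSS, against 5.54% and 2.61% of all genes. Their median log2 ratios there were 2.80 and 1.36. Limma called 13 of 14 myeloid markers higher in AOM+DSS and 2 of 13 in DSS, against 10.8% and 2.92% of all genes. Mrc1, the macrophage mannose receptor, was at 272, 220.0 and 154 in AOM+DSS and at 35.7, 69.1 and 39.2 in control. Fibroblast and matrix markers, 10 of 10, summed to 1356, 1407 and 3833 in AOM+DSS, 1352, 707, 572 and 558 in DSS and 565, 2050.2 and 469 in control. Smooth muscle markers, 6 of 7, summed to 1397, 1342 and 11155 in AOM+DSS, 1153 to 1831 in DSS and 992, 2295 and 848 in control, and 7 endothelial markers summed to 275 to 749 in AOM+DSS, 299 to 670 in DSS and 479 to 798 in control. AOM+DSS library c was the highest of its group for Cd3e, Cd3d, Cd3g, Cd8a, Cd8b1, Lck and Gzmb. It was also the highest for the B cell, fibroblast, smooth muscle and endothelial lists, and the lowest for the myeloid list.

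**Figure D4:**
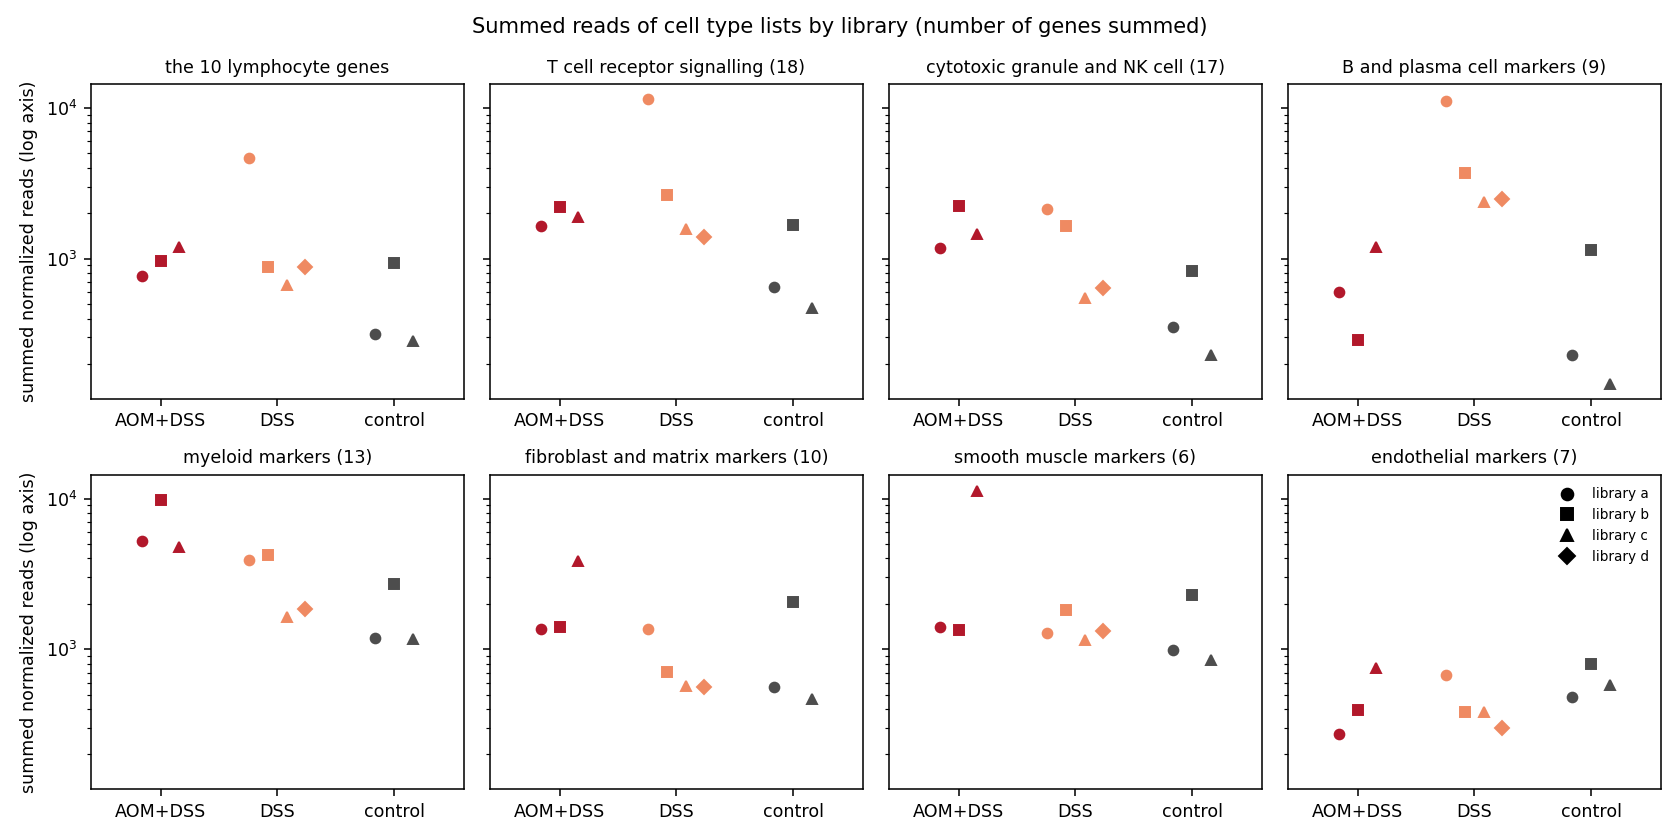
Panels plot summed normalized reads per library on a log axis for the 10 lymphocyte genes and for lists of T cell receptor signalling, cytotoxic and NK, B and plasma cell, myeloid, fibroblast, smooth muscle and endothelial genes, with AOM+DSS, DSS and control side by side. DSS library a leads the T cell and B cell panels, at 4619 for the 10 genes and 11057 for B cell markers, while AOM+DSS library b leads the myeloid panel at 9708.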

How the data were processed

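Poly(A) RNA of distal colon crypts was sequenced in 3 AOM+DSS, 4 DSS and 3 control libraries, grouped by the labels' treatment field. Per the labels' protocols, the kit was TruSeq RNA v2, a chemistry without strand information. TopHat2 2.0, the mm9 build and DESeq are named per the submitters' processing notes. Not given in the sources used here: the read counter, the annotation, its strand setting and which DESeq version. Per the file headers, the 2 deposited tables, one per treatment against control over 23364 genes, hold as signal columns the mean normalized read count over libraries and per group, the fold change as treated to control ratio and its log2. Their columns also hold the authors' p-value per gene, raw and adjusted. One header speaks of 4 AOM libraries where the labels list 3; its column of overall means is the unweighted average of both groups.

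A group mean is a sum of whole reads, each times a fixed step of its library. With 15 printed digits, a single combination of whole reads matched within rounding for 99.2%, 89.2% and 99.0% of genes in AOM+DSS, DSS and control; searches stopped at means of 10000 for 3 libraries and 2200 for 4. The recovered reads were 13742903 to 20139506 per AOM+DSS library and 13478106 to 14985081 per control library. In DSS they were 4032956 to 7933146 and hold only 31.9% of the mean total, so size factors give its depth. Recovery and fits were also tested on simulated data.

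Without counts for single samples, no count test was made, and calls against control rest on an adjusted p under 0.05 from the authors' columns. Limma 3.58.1 (R 4.3.3, trend, Benjamini-Hochberg) on log2(normalized recovered reads + 1) over all genes recovered in both groups compared AOM+DSS with DSS and served as the alternative elsewhere; low genes are understated by the pseudocount of 1. Other alternatives were pseudocounts of 0.5 and 5, a mean of at least 10, upper quartile scaling and each library left out. Leaving out control b and DSS a together was chosen after seeing the data, for their high sums of the 10 genes. Log2 ratios of group means and limma differences of mean logs are different quantities.

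All 10 genes are named. From each pathway list, the text names up to 3 called genes, by smallest adjusted p, or the 2 with the highest mean where none was called. Genes most like the CD3 chains were the 6 outside the 10 with the highest Pearson correlation among genes with a mean of at least 20. Il17a, Cxcl9, Prf1, Gzmc, Ncr1, Klrb1c, Klrd1, Zap70, Gsg2, Lgals4 and Epcam were named after their values were seen. A few genes that these rules select are not reported here, although counts include them. The members and lists were chosen with earlier results of these data known. Libraries could not be matched to replicate numbers, so none were paired. Intervals and floors cover counting error only.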

Additional observations from a re-analysis of the deposited data

Results flagged for a closer look

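In the 4 DSS libraries the highest value stood apart from the rest by Dixon's gap to range ratio, above its 95% critical value for 4 samples, for 7 of the 10 genes. The ratio was 0.96 for Cd3e, 0.865 for Cd3d, 0.9 for Cd3g, 0.899 for Cd4, 0.964 for Cd8a, 0.971 for Cd8b1 and 0.936 for Lck, and 0.945 for the sum of the 10 genes. The library was DSS a each time, so these are not separate events. Gzma (0.732), Gzmb (0.488) and Itgae (0.647) did not reach the critical value. Chance alone gives such a flag in about 1 of 20 groups if values follow a normal distribution. The ratios were taken on normalized reads without logs, for which that rate was not tested. Groups of 3 libraries were not tested, so control library b has no such value.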

How the results depend on the processing

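Of the 10 genes, the authors' table called 1 in DSS against control, and limma called 0 with pseudocounts of 1, 0.5 and 5, a mean of at least 10 or upper quartile scaling, 0 to 1 with each library left out, and 5 without control b and DSS a. In AOM+DSS against control it called 2, against 1 under each of these limma settings and 0 to 4 with each library left out: 4 without control b and 0 without any other library. Of all genes, limma called 4.92% higher in DSS without control b and DSS a, and 15.1% higher in AOM+DSS without control b. These libraries had the highest sums of the 10 genes in their groups, and leaving both out was chosen after seeing the data. Counts of the 10 genes without them therefore cannot be weighed against the shares over all genes. Between AOM+DSS and DSS 0 were called under every setting run. Over all genes the count in DSS against control was 794 in the authors' table and 867 with limma, and limma gave 146 to 1014 with each library left out. In AOM+DSS against control it was 1630, but 3093 with limma, 3058 and 2999 with pseudocounts of 0.5 and 5, 3067 with a mean of at least 10, 3111 with upper quartile scaling, and limma gave 521 to 4214 with each library left out. Between AOM+DSS and DSS it was 372, and 75 to 606 with each library left out. The cause of these shifts was not tested, apart from the fewer samples of the left-out fits.

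Log2 differences that changed sign did so for genes that were not called. With each library left out, Itgae against control ranged from -0.54 to 0.034 in DSS (above 0 without DSS c) and from -0.17 to 0.29 in AOM+DSS (below 0 without control a). In AOM+DSS against DSS the ranges were -0.84 to 0.15 for Cd3e, -0.998 to 0.25 for Cd3d and -0.69 to 0.16 for Cd3g, each above 0 only without DSS a. There Cd4 ranged from -0.46 to 0.93, and was at -0.16 without AOM+DSS b, -0.46 without DSS c and -0.29 without DSS d. Leaving out a library of a group of 3 leaves 2, which limma fits with a spread shared across groups. No paired analysis was possible because the recovered libraries carry no replicate number. Depth limits the genes with few reads, such as Cd4 with 8, 76 and 0 reads in the control libraries.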
